A study of Mus musculus with 12 samples.

Results

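The comparison is between mouse hearts collected 72 h and 1 week after induction of a model of myotonic dystrophy type 1 (DM1), and it asks which cardiac functions changed in that interval. Its members are the 3 hearts labelled 72 h and the 3 labelled 1 week, 6 of the 12 hearts in the series, chosen by those labels alone. All 6 hearts came from EpA960/MCM bitransgenic mice of strain FVB, aged 2 to 4 months, which received tamoxifen by intraperitoneal injection at 20 mg/kg, as a single dose or daily for 5 days. The labels do not tie either schedule to a time. EpA960 carries an expanded CTG repeat that is expressed as CUG-repeat RNA (CUGexp) once the heart-specific MCM recombinase has been activated by tamoxifen. The 3 MCM hearts of the same strain, labelled untreated, serve below as a reference level for plots and medians. They also entered the normalization and the fit, as did 2 adult and 1 embryonic day 14 wildtype hearts. The labels do not say whether each array is a separate animal. The p-values therefore measure the spread between samples within groups, pooled over the groups of the series.

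DM1 is caused by a CTG repeat expansion in DMPK. The expanded CUG RNA binds MBNL splicing factors and raises CELF1, and in the heart the disease is known for conduction defects, arrhythmia and muscle dysfunction. A heart under stress typically lowers genes for fatty acid oxidation and mitochondria, raises natriuretic peptides and matrix genes, and recruits macrophages. Cells short of amino acids, or with misfolded proteins in the endoplasmic reticulum or mitochondria, activate the transcription factor ATF4, which raises genes for amino acid synthesis and uptake.

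Total RNA was measured on Illumina bead arrays, and values below are log2 signals after background correction and quantile normalization. Between 14202 and 15598 of 45281 probes were detected on the 6 arrays. The 1 week arrays correlated with each other across genes at 0.992 to 0.993, and 72 h replicates 1 and 3 at 0.986. The 72 h replicate 2 stood apart: it correlated with replicates 1 and 3 at 0.965 and 0.951 and with the 1 week arrays at 0.944 to 0.951, against 0.894 to 0.914 for replicates 1 and 3. Counts for gene lists are therefore given with and without it. Y-linked Eif2s3y was 5.16, 5.17 and 10.97 in 72 h replicates 1, 2 and 3 and 10.36, 10.65 and 10.74 at 1 week, so the hearts also differed in sex-linked signal. With 72 h replicate 3 alone against 1 week, 2505 genes were higher and 2215 lower. That fit has 1 heart at 72 h, which is assumed to vary like the other groups. The 1 week labels carry a suffix, "-R", that the other labels lack and whose meaning is not given, and the files name no chip. A batch between the times therefore cannot be told apart from time. The cardiomyocyte myosin Myh6 lay between 14.94 and 15.98 on all 6 arrays, near the highest normalized signal of 16.07, and no probe of the T and B cell markers entered the tests.

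Of 8737 genes tested with limma, 2285 (26.2%) were higher and 2120 (24.3%) lower at 1 week at a Benjamini-Hochberg adjusted p below 0.05. Together they made 50.4% of the genes. Without 72 h replicate 2 the counts were 2756 (31.5%) and 2522 (28.9%), together 60.4%. In both fits 2201 were higher and 2048 lower, and no gene was called in opposite directions. A change of at least 2-fold was called for 709 genes upward and 365 downward, and of at least 4-fold for 121 and 20. Without replicate 2 these counts were 971 and 545 at 2-fold and 211 and 32 at 4-fold. Because about every other gene was called, the count for a function list is read below against these shares of all genes. The median log2 change over all genes was 0.02 with and without replicate 2. A gene could enter through the detected probes of either time: 802 entered through 1 week alone and 212 through 72 h alone. Such a gene was likely to differ, so their number is given for lists that held 3 or more.

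Among genes called in both fits with no overlap between the times, the largest rises were Sspn and Crct1, and the largest falls Syne2 and Ppara. Sspn encodes sarcospan, a member of the dystrophin-glycoprotein complex. It was 4.93, 5.05 and 5.51 at 72 h and 12.39, 12.31 and 12.07 at 1 week, a rise of at least 42.0-fold (adjusted p = 4.17e-10), with no array at 72 h above background. Crct1, a gene of the epidermal cornified envelope cluster, was 4.94, 5.11 and 5.49 at 72 h and 11.85, 11.99 and 12.52 at 1 week, at least 38.2-fold higher (adjusted p = 1.22e-09). For both genes all 3 hearts at 72 h, replicate 2 included, lay at background, as did the MCM hearts (means 5.07 and 5.03). Whether the Sspn and Crct1 probes read their genes or another transcript was not tested. The other large rises fell into inflammation (Arg1, Chil3, Chil4, Clec4d, Lcn2, Retnlg), glutathione transfer (Gsta1, Gsta2), matrix breakdown (Mmp3) and protein folding (Hspa1a). For Syne2, a nuclear envelope protein, the probe was dark at 1 week and the fall at least 3.48-fold, but its other entered probes changed by -1.99 to 0.39. The other large falls were Ppargc1b, Gpr22, the mitochondrially encoded complex I subunit ND6, Tbx20, the muscle genes Ky and Lrrc2, the DNA demethylase Tet1, the stem cell factor gene Kitl, Aph1b and Filip1l. The Lrrc2 and Aph1b probes lay between 4.89 and 5.08 in the adult and embryonic wildtype hearts, against MCM means of 11.34 and 8.18. What lies behind that difference, and whether it bears on the falls, was not tested.

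**Figure D1:**
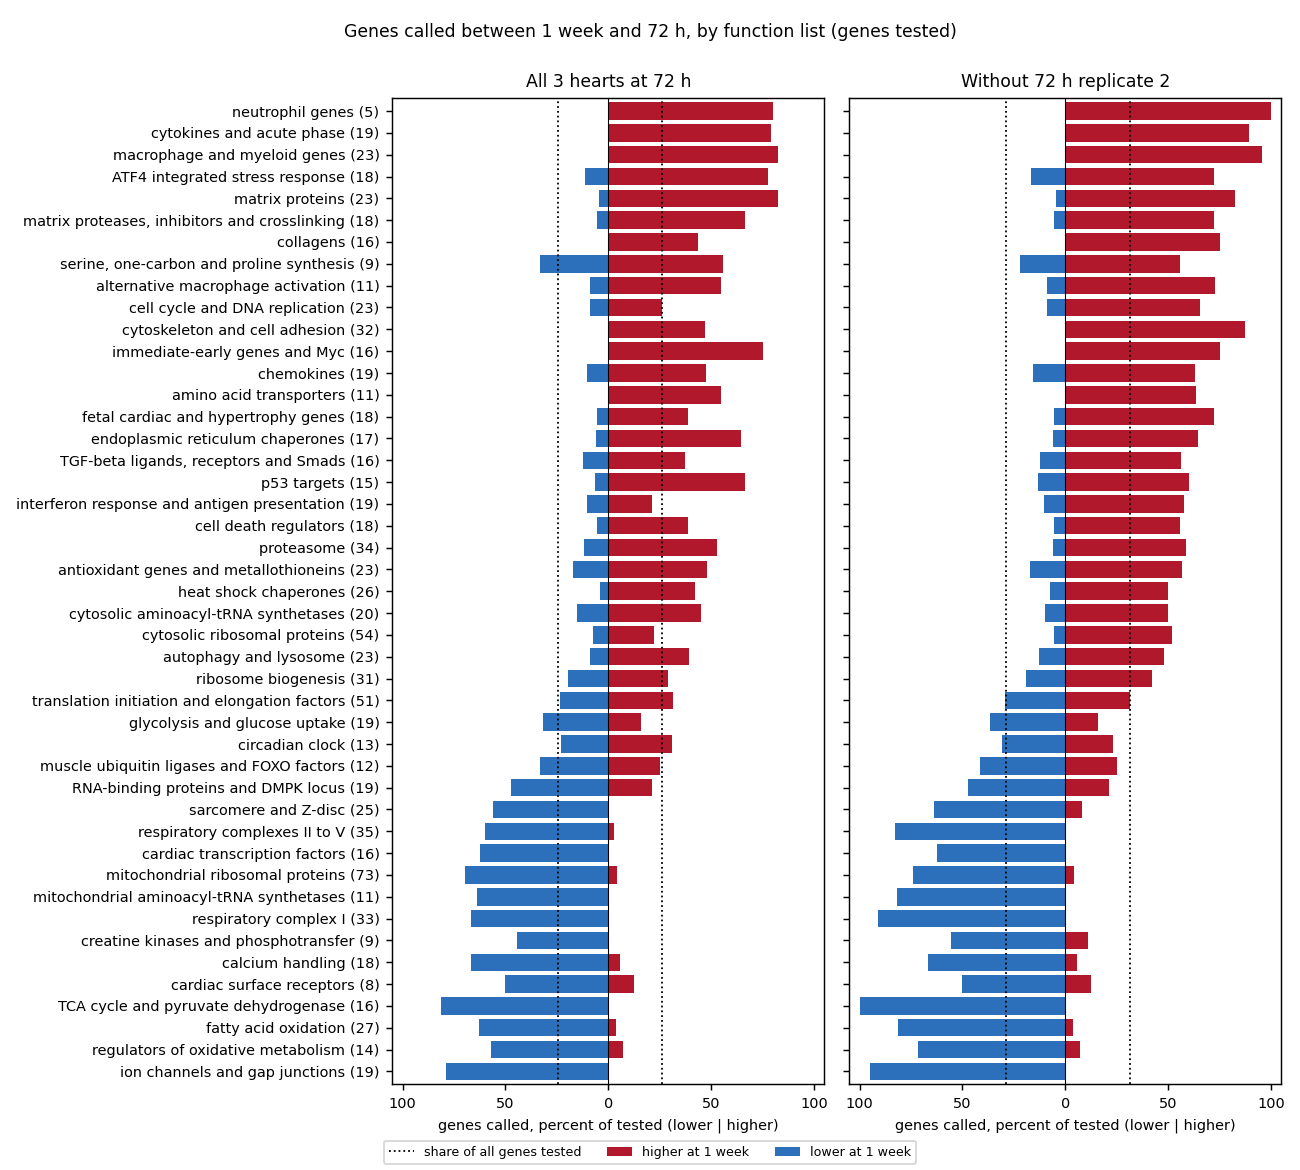
Share of tested genes called higher (right, red) or lower (left, blue) at 1 week than at 72 h for each function list, in percent, with the number tested in brackets; the left panel uses all 3 hearts at 72 h and the right panel leaves out 72 h replicate 2. Dotted lines mark the shares over all 8737 genes, 26.2% and 24.3% on the left and 31.5% and 28.9% on the right; lists of cell cycle, cytoskeleton and ribosomal protein genes have visibly longer bars on the right.

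Genes of the ATF4 arm of the integrated stress response rose between 72 h and 1 week. Of 18 tested, 14 rose and 2 fell (median log2 change 1.28, against 0.02 for all genes), and 13 rose and 3 fell without replicate 2 (median 1.55). Of these 18, 4 entered through 1 week alone. Asns, asparagine synthetase, was 7.96, 8.68 and 7.80 at 72 h and 11.16, 11.18 and 11.29 at 1 week. That is 8.35-fold (log2 change 3.06 ± 0.19 SE, adjusted p = 7.72e-07), with no overlap between the times. Chac1, which degrades glutathione, was 8.22, 8.12 and 7.73 at 72 h and 10.94, 10.81 and 10.44 at 1 week, 6.54-fold higher (adjusted p = 2.61e-06). For Chac1 the 72 h replicate 2 lay between the other hearts at 72 h. Ppp1r15a, which targets a phosphatase to eIF2 and so ends the response, rose 3.48-fold (adjusted p = 2.08e-06). The pseudokinase Trib3, detected on 1 of 3 arrays at 72 h, rose by 2.62 ± 0.21 (adjusted p = 4.05e-06), and another probe changed by 0.97. The members that fell were Stc2, a secreted glycoprotein (log2 change -0.67), and the lipoprotein receptor gene Vldlr (-0.56), whose other probes ranged from -0.90 to 1.74.

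The promoters of these genes were searched for TGATGNAA, the core of the C/EBP-ATF element that ATF4 binds with a C/EBP partner, on both strands of the 250 bases before the RefSeq start. Among 19 members with a promoter in the table, 8 held it (Atf3, Chac1, Asns, Vldlr, Nupr1, Fgf21, Herpud1 and Slc7a11), against 3.91% of 27025 genes. The list consists of known ATF4 targets, so the match describes the list and not the arrays. All 8 were tested and 6 rose. The stretches below show the element, in capitals, in 3 genes that rose and in Vldlr, which fell; each is on the strand of its gene, from RefSeq build GRCm38.p6.
Asns, chr6:7693210-7693273, minus strand: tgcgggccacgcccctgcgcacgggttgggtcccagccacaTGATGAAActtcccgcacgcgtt
Chac1, chr2:119351008-119351097, plus strand: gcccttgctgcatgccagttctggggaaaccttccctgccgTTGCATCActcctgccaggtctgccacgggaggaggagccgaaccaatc
Slc7a11, chr3:50443622-50443710, minus strand: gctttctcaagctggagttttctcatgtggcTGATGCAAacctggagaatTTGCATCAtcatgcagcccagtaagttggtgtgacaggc
Vldlr, chr19:27216779-27216868, plus strand: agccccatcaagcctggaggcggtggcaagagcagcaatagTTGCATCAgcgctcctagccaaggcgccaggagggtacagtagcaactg
The Slc7a11 stretch holds the element on each strand, and TTGCATCA is the same element read from the other strand.

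Among 11 amino acid transporters tested, 6 rose and none fell (7 and none without replicate 2), and 4 of the 6 that rose entered through 1 week alone. Slc7a11, the cystine importer, was 5.31, 5.20 and 5.12 at 72 h and 7.35, 7.76 and 7.29 at 1 week, at least 1.52-fold higher (adjusted p = 6.70e-06). Its partner subunit Slc3a2 was 5.93, 5.91 and 5.73 against 8.23, 8.18 and 8.43, at least 2.67-fold higher (adjusted p = 2.24e-06). Both were dark on every 72 h array. Slc7a3, a cationic amino acid transporter, rose at least 1.20-fold. The glutamine carrier Slc38a1 rose 3.44-fold from 72 h signals of 8.42 to 8.58, while its probe was dark in all MCM hearts. Whether this probe reads its gene or the induced transcript was not tested.

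Serine and one-carbon genes were split, with 5 of 9 higher and 3 lower (5 and 2 without replicate 2). Mthfd2, the mitochondrial folate enzyme, was 7.86, 9.08 and 7.03 at 72 h and 11.74, 11.60 and 11.72 at 1 week, 13.0-fold higher (adjusted p = 1.69e-05). Replicate 2 was the highest of the 72 h hearts, yet far below 1 week. Psat1, of serine synthesis, rose 2.82-fold, Aldh1l2, a mitochondrial folate enzyme, 2.51-fold and Phgdh, which begins serine synthesis, at least 1.69-fold. The serine hydroxymethyltransferases Shmt1 and Shmt2 fell 2.10-fold and 1.5-fold. Among 20 cytosolic aminoacyl-tRNA synthetases and their partners 9 rose and 3 fell (10 and 2 without replicate 2). Sars, Gars and Aars, which charge serine, glycine and alanine tRNAs, rose 2.12-fold, 1.72-fold and 1.70-fold. The scaffold proteins Aimp1 and Eef1e1 fell 1.78-fold and 1.47-fold. By contrast, 7 of 11 mitochondrial synthetases fell and none rose (9 and none without replicate 2), with Cars2 down 1.57-fold. TGATGNAA was found before 3 of 16 cytosolic synthetase genes, Aars, Gars and Tars, and all 3 rose.

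In the heat shock list 11 of 26 rose and 1 fell (13 and 2 without replicate 2), and 4 entered through 1 week alone. Hspa1a, the inducible HSP70, was 6.33, 7.15 and 6.64 at 72 h and 11.38, 11.35 and 11.01 at 1 week, a log2 change of 4.54 ± 0.21 (adjusted p = 9.47e-08), with 1 of 3 arrays at 72 h above background and another probe changed by 2.35. Hspa1b, its near-identical neighbour, rose by 1.93 ± 0.26, and since the copies share sequence the probes may not separate them. Hsp90aa1 rose 2.41-fold and Hsph1, an HSP70 nucleotide exchange factor, 1.86-fold, while the small heat shock protein Hspb6 fell 1.23-fold. The heat shock element, as 3 inverted GAA units on either strand, was found before 2 of 22 genes, Hspd1 and Hspe1, against 0.514% of all genes, and neither was called.

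Endoplasmic reticulum genes had 11 of 17 higher and 1 lower (the same counts without replicate 2). Xbp1, the transcription factor of the unfolded protein response, was 11.62, 12.30 and 11.65 at 72 h and 12.90, 12.82 and 12.90 at 1 week, 2.02-fold higher (adjusted p = 0.000229). The degradation components Sel1l and Syvn1 rose 2.39-fold and 1.91-fold and the disulfide isomerase P4hb 2.12-fold, while Cdnf, a secreted survival factor, fell 1.81-fold. Another probe of Sel1l changed by 0.12. Of 34 genes named as proteasome subunits or partners 18 rose and 4 fell (20 and 2 without replicate 2). Psmd4, the ubiquitin receptor of the regulatory particle, was 12.67, 12.92 and 12.70 at 72 h and 13.89, 13.94 and 14.01 at 1 week, 2.27-fold higher (adjusted p = 1.02e-05). Psmc4, Psmd8 and Psmd1 of the same particle rose 1.91-fold, 1.73-fold and 1.52-fold. Other Psmd1 probes changed by 0.02 to 0.32 on the log2 scale. The core subunit Psmb1 fell 1.91-fold, and the list's other named fall, Psmc3ip, is a recombination factor that shares only its name.

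Among 23 autophagy and lysosome genes 9 rose and 2 fell (11 and 3 without replicate 2), and 3 entered through 1 week alone. The autophagy receptor Sqstm1 was 12.64, 12.81 and 12.72 at 72 h and 13.92, 13.82 and 14.29 at 1 week, 2.44-fold higher (adjusted p = 2.41e-05). Gabarapl2, of the autophagosome membrane, rose at least 2.64-fold. The lysosomal protease Ctsl rose at least 2.20-fold and its relative Ctsz 2.78-fold. Atg5 and Wipi1, which build the autophagosome, fell by 0.30 ± 0.10 and 0.32 ± 0.08 on the log2 scale. Other Wipi1 probes ranged from -0.57 to 0.13. Of 12 genes listed as muscle ubiquitin ligases and FOXO factors 3 were higher and 4 lower (33.3%, against 24.3% of all genes), with 3 and 5 without replicate 2. The higher genes include Gabarapl1 and the lower ones Cavin4, and neither is a ubiquitin ligase or a FOXO factor. The list's median of -0.10 changed sign, to 0.01, with no detection filter. The atrophy ligases Trim63 and Fbxo32 fell 1.97-fold and 1.47-fold, and the ligase gene Cblb rose 2.26-fold.

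Antioxidant genes and metallothioneins had 11 of 23 higher and 4 lower (13 and 4 without replicate 2). Of the 11 that rose, 5 entered through 1 week alone. Srxn1, sulfiredoxin, was 8.90, 9.38 and 9.07 at 72 h and 10.75, 10.82 and 10.82 at 1 week, 3.21-fold higher (adjusted p = 3.58e-06). Mt2, a metal-binding protein, rose by 3.44 ± 0.37 and Gsta1 by 4.09 ± 0.33 on the log2 scale, each detected on 1 of 3 arrays at 72 h. Gsta2 rose at least 9.67-fold. Nfe2l2, which encodes the transcription factor NRF2 of this response, fell 1.44-fold and its target Me1, malic enzyme, 3.22-fold. The Me1 probe was 5.28 and 5.14 in the adult and 5.23 in the embryonic wildtype hearts, against an MCM mean of 9.17. What lies behind that difference was not tested. The NRF2-type element TGACNNNGC was found before 8 of 22 genes (36.4%), against 11.5% of all genes. Of the 7 tested with a match 4 rose.

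**Figure D2:**
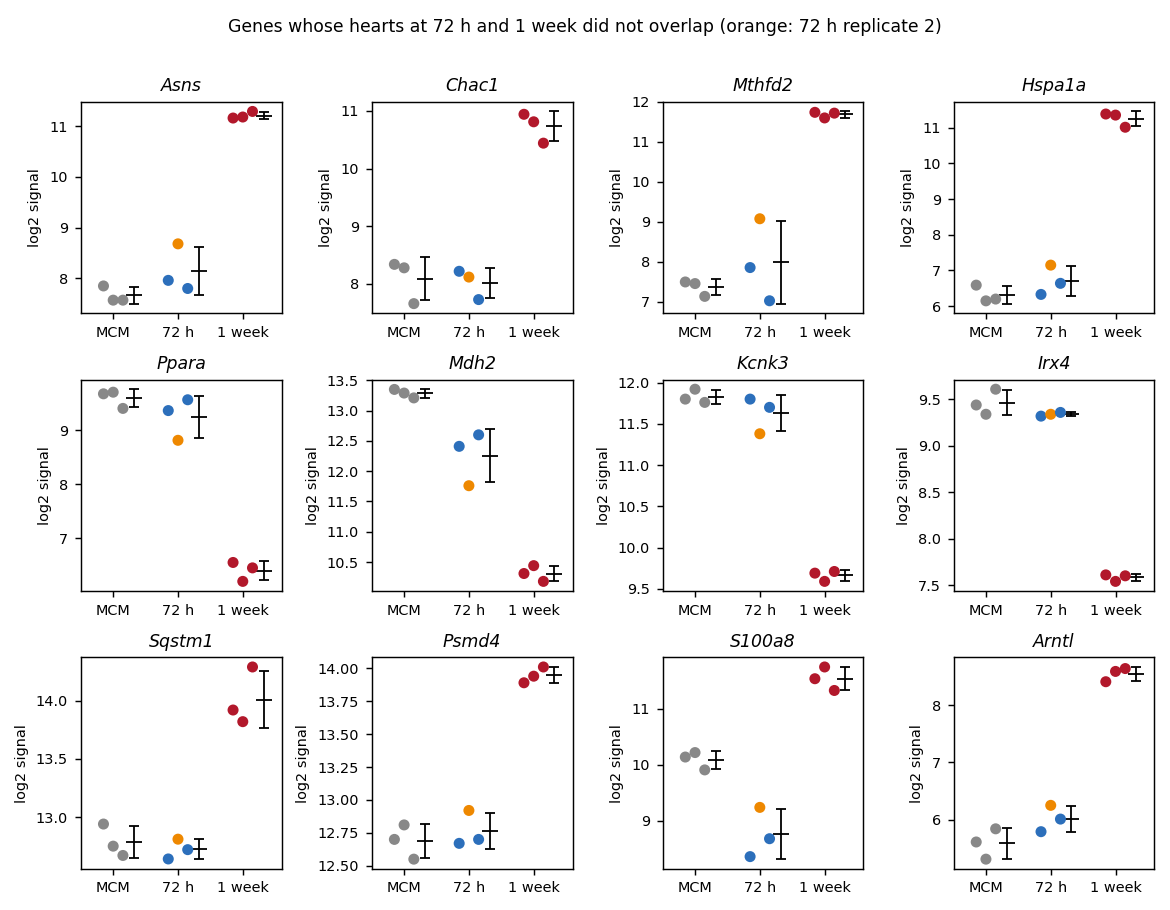
Log2 signal of 12 genes on each array of the MCM (grey), 72 h (blue, replicate 2 in orange) and 1 week (red) hearts, with the mean and SD of each group as a bar (n = 3). The groups at 72 h and 1 week do not overlap for any of the 12, and for Asns the 72 h hearts lie between 7.80 and 8.68 and the 1 week hearts between 11.16 and 11.29.

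Genes for mitochondrial energy production fell. Among 14 regulators of oxidative metabolism 8 fell and 1 rose (10 and 1 without replicate 2; medians -0.79 and -0.92). Ppara, the nuclear receptor for fatty acids, was 9.36, 8.81 and 9.56 at 72 h and 6.55, 6.20 and 6.45 at 1 week, at least 5.90-fold lower (adjusted p = 1.09e-06) and dark on all 3 arrays at 1 week. Ppargc1b and Ppargc1a, coactivators of mitochondrial genes, fell 4.70-fold and 2.69-fold and the nuclear receptor Esrra 1.86-fold. Nrf1, a transcription factor for respiratory genes, was 8.32, 8.47 and 8.37 at 72 h and 9.31, 9.19 and 9.44 at 1 week, 1.90-fold higher (adjusted p = 6.61e-05).

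Among 27 fatty acid oxidation genes 17 fell and 1 rose (22 and 1 without replicate 2; medians -0.58 and -0.78). Acaa2, the last enzyme of the beta-oxidation cycle, was 14.07, 13.46 and 14.44 at 72 h and 12.99, 12.89 and 12.87 at 1 week, 2.10-fold lower (adjusted p = 0.000629). Here replicate 2 lay closest to 1 week. Etfdh, which passes electrons to ubiquinone, fell 2.04-fold, though another probe changed by 0.25, and Eci2 fell 1.87-fold. Lpl, lipoprotein lipase, fell 1.49-fold, and its 72 h signals, 15.47 to 15.89, were close to the highest on the arrays. The member that rose was Pdk4, the kinase that shuts pyruvate dehydrogenase. It was 11.02, 10.89 and 12.21 at 72 h and 12.66, 12.84 and 13.09 at 1 week, 2.81-fold higher (adjusted p = 0.0093), against an MCM mean of 12.37.

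In the TCA cycle and pyruvate dehydrogenase 13 of 16 fell and none rose (16 and none without replicate 2). Mdh2, mitochondrial malate dehydrogenase, was 12.41, 11.76 and 12.60 at 72 h and 10.31, 10.44 and 10.18 at 1 week, 3.85-fold lower (adjusted p = 8.52e-06). Fh1, Dld and Dlst, of the same cycle, fell 2.06-fold, 1.99-fold and 1.80-fold. Complex I had 22 of 33 lower and none higher (30 and none without replicate 2), with Ndufb10, Ndufs7 and Ndufs8 down 1.82-fold, 1.72-fold and 1.63-fold. Complexes II to V with cytochrome c had 21 of 35 lower and 1 higher (29 and none without replicate 2). Cycs, cytochrome c, was 14.85, 14.40 and 14.73 at 72 h and 13.90, 13.85 and 13.76 at 1 week, 1.77-fold lower (adjusted p = 0.00023). The exception, the ATP synthase subunit Atp5k, rose by 0.58 ± 0.20 by 1 probe (adjusted p = 0.0313) while another changed by -0.86. The estrogen-related receptor element TNAAGGTCA stood before 1 of 34 complex I genes and none of 24 fatty acid oxidation genes, against 1.30% of all genes.

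In the mitochondrial ribosome 51 of 73 genes fell and 3 rose (54 and 3 without replicate 2; medians -0.45 and -0.48). Mrpl45, of the large subunit, was 8.02, 7.35 and 8.10 at 72 h and 5.49, 5.64 and 5.87 at 1 week, at least 2.20-fold lower (adjusted p = 2.83e-05). Mrpl47 fell 1.57-fold, and Mrpl51 fell 2.21-fold by 1 probe while others ranged from -1.17 to 0.05. Mrpl20 and Mrps18c rose 1.32-fold each. Creatine kinases and adenylate kinases had 4 of 9 lower (5 lower and 1 higher without replicate 2). Ckm, the cytosolic muscle creatine kinase, fell 2.28-fold, Ak1 1.70-fold and the mitochondrial Ckmt2 1.47-fold. In glycolysis 3 of 19 were higher (15.8%) and 6 lower (31.6%), with 3 and 7 without replicate 2. The muscle enolase Eno3 was 15.39, 14.88 and 15.19 at 72 h and 14.06, 13.79 and 13.62 at 1 week, 2.51-fold lower (adjusted p = 2.11e-05). Pfkfb2 and Pfkm, of the phosphofructokinase step, fell 2.05-fold and 1.52-fold, while the glucose transporter Slc2a1 rose 2.01-fold.

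Electrical and contractile genes fell. The list of channels and gap junctions had 15 of 19 lower and none higher, and 18 lower without replicate 2 (medians -1.07 and -1.33). Kcnk3, a background potassium channel, was 11.80, 11.38 and 11.70 at 72 h and 9.69, 9.59 and 9.71 at 1 week, 3.90-fold lower (adjusted p = 4.66e-07). The inward rectifiers Kcnj12 and Kcnj8 fell 2.48-fold and 1.94-fold. Abcc9, the sulfonylurea receptor subunit, fell 2.19-fold by 1 probe and was higher by 2.46 on the log2 scale by another. In calcium handling 12 of 18 fell and 1 rose, with the same counts without replicate 2 and 7 falling without 1 week replicate 3. Pln, phospholamban, the brake on the calcium pump, was 14.38, 13.76 and 14.50 at 72 h and 12.52, 13.02 and 12.81 at 1 week, 2.70-fold lower (adjusted p = 7.80e-05). The calcium channel subunits Cacnb2 and Cacna2d1 fell 3.15-fold and 2.05-fold, although other Cacna2d1 probes ranged from -0.24 to 0.07, and Itpr2, a calcium release channel, rose 1.33-fold.

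Among 8 genes listed as cardiac surface receptors 4 fell and 1 rose, with the same counts without replicate 2. The 4 include Pln, which is not a receptor and is also counted under calcium handling. Gpr22, an orphan receptor of the heart, was 11.18, 10.32 and 11.56 at 72 h and 8.48, 8.44 and 8.19 at 1 week, 6.28-fold lower (adjusted p = 1.25e-05). Agtr1a, the angiotensin receptor, fell 1.86-fold. Sarcomere and Z-disc genes had 14 of 25 lower and none higher (16 and 2 without replicate 2). Ttn, titin, fell 1.90-fold, Tcap, its Z-disc partner, 1.81-fold and Lmod3, which lengthens thin filaments, 2.38-fold. Myh6 was 15.96, 15.71 and 15.98 at 72 h and 14.99, 14.94 and 15.06 at 1 week, 1.85-fold lower (adjusted p = 2.07e-05), with the 72 h signals near the top of the scale.

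Cardiac transcription factors fell in 10 of 16 cases and rose in none, with and without replicate 2. Irx4, the ventricular homeobox factor, was 9.32, 9.34 and 9.36 at 72 h and 7.61, 7.54 and 7.60 at 1 week, 3.37-fold lower (adjusted p = 5.62e-07). Replicate 2 lay between the other hearts at 72 h, and no heart of one time came near the other time. Tbx20 fell 4.64-fold (another probe -0.52), Myocd, the myocardin coactivator, 2.32-fold, Meis1 1.74-fold and Mef2c 1.55-fold. Of 19 genes for RNA-binding proteins and the DMPK locus 9 fell and 4 rose, with the same counts without replicate 2 and 5 falling without 1 week replicate 3. Dmpk was 13.63, 13.34 and 13.65 at 72 h and 12.93, 13.04 and 12.84 at 1 week, 1.52-fold lower (adjusted p = 0.000615), and its neighbour Six5 fell 2.33-fold. The splicing factor Rbfox1 fell 2.82-fold, while Rbfox2 and Ptbp1 rose 1.52-fold and 1.75-fold. Mbnl1 (-0.12 ± 0.12), Mbnl2 (-0.22 ± 0.10), Celf1 (-0.07 ± 0.09) and Celf2 (0.26 ± 0.11) were not called. Without replicate 2 Celf2 was called, at 0.37 (adjusted p = 0.00499).

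The fetal and hypertrophy list depended on replicate 2. Of 18 genes 7 rose and 1 fell, against 13 and 1 without replicate 2 and 4 and 1 without 72 h replicate 1 (medians 0.43 and 0.77 with and without replicate 2). Nppb, the B-type natriuretic peptide, was 13.99, 15.73 and 13.22 at 72 h and 15.58, 15.57 and 15.60 at 1 week. Replicate 2 lay above every heart at 1 week, and the fold was 2.42 with it (adjusted p = 0.0292) and 3.94 without it (adjusted p = 4.85e-08). Acta2, smooth muscle actin, was 13.88, 14.06 and 14.08 against 15.64, 15.40 and 15.47 and so rose alike with and without replicate 2 (2.83-fold and 2.88-fold). Flnc and Vim, of the filamin and intermediate filament networks, rose 1.82-fold and 2.46-fold and the stem cell filament gene Nes 2.18-fold, while the Z-disc sensor Csrp3 fell 1.40-fold. Another probe of Nes changed by 0.31 on the log2 scale. Nppa (16.07, 15.82 and 14.65 against 15.98 to 16.01) and Myh7 (10.45, 10.65 and 9.24 against a mean of 10.19 ± 0.23 SD, n = 3) were not called in either fit. Nppa lay near the top of the scale in all but 72 h replicate 3. Atrial markers, which include Nppa, had a median relative to the MCM mean of 1.02, 0.47 and -0.97 in the 3 hearts at 72 h. The 3 MCM hearts also spread widely, at 0.52, 0.93 and -1.38. Of 8 atrial markers none rose and 3 fell, with and without replicate 2. The part of atrial tissue in the fetal list was not tested.

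More collagen genes passed without replicate 2. Of 16 tested 7 rose, against 12 without replicate 2. Leaving out any of 72 h replicates 1 and 3 and 1 week replicates 1 and 2 gave 4, and none fell in the full comparison. Of the 16, 4 entered through 1 week alone. Col1a2, of fibrillar collagen I, was 6.75, 8.62 and 6.84 at 72 h and 9.05, 8.98 and 8.95 at 1 week. It rose by 1.59 ± 0.38 (adjusted p = 0.00476) and by 2.19 ± 0.17 without replicate 2, and was detected on 1 of 3 arrays at 72 h. Col5a1, a fibril nucleator, rose 2.35-fold and Col16a1 1.95-fold. Col7a1, the anchoring fibril collagen, was 5.66, 6.01 and 6.03 against 7.26, 7.57 and 7.54, at least 1.5-fold higher. It was at background on all 3 arrays at 72 h.

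Matrix proteins other than collagens rose in 19 of 23 cases and fell in 1, with and without replicate 2 (medians 1.15 and 1.55), and 4 entered through 1 week alone. Thbs1, thrombospondin 1, was 5.35, 6.59 and 6.01 at 72 h and 8.56, 8.78 and 8.29 at 1 week, at least 3.19-fold higher (adjusted p = 3.37e-05). Ccn1 and Thbs2, matricellular proteins, rose 3.40-fold and 3.08-fold and the laminin chain Lamc1 2.17-fold, while the laminin chain Lamb3 fell 1.98-fold. Of 18 proteases, inhibitors and crosslinking enzymes 12 rose and 1 fell (13 and 1 without replicate 2). Of the 12 that rose, 6 entered through 1 week alone. Mmp3, stromelysin, was 6.27, 8.82 and 6.14 at 72 h and 11.39, 11.56 and 11.39 at 1 week, a rise of 4.37 ± 0.55 (adjusted p = 7.73e-05), detected on 1 of 3 arrays at 72 h. Plaur, the urokinase receptor, and Adam8 rose at least 2.66-fold and 2.59-fold and Mmp2, gelatinase A, 2.11-fold. The collagen hydroxylase Plod2 fell 1.40-fold and was not called without replicate 2.

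In the TGF-beta list 6 of 16 rose and 2 fell, with 9 rising and 2 falling without replicate 2, and 3 rising without 72 h replicate 1 or without 1 week replicate 1. Of the 16, 3 entered through 1 week alone. Fst, which traps activin, was 5.22, 5.53 and 5.34 against 7.76, 8.01 and 7.56, at least 1.88-fold higher (adjusted p = 4.05e-06). Tgfbr1 rose 1.54-fold, and Smad2 and the inhibitory Smad6 fell 1.39-fold and 1.65-fold. The cytoskeleton and adhesion list had 15 of 32 higher and none lower, and 28 higher without replicate 2 (medians 0.61 and 0.98), and 3 entered through 1 week alone. S100a11, a calcium-binding partner of annexins, was 12.25, 13.45 and 11.79 at 72 h and 14.38, 14.50 and 14.44 at 1 week, 3.84-fold higher (adjusted p = 0.000291). Zyx, of focal adhesions, rose 2.75-fold and S100a10 3.13-fold. Cfl1, cofilin, rose at least 3.89-fold by a probe dark at 72 h and in all MCM hearts. Whether that probe reads its gene was not tested.

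Genes of inflammatory cells rose. In bulk tissue, more cells of a type and more RNA per cell cannot be told apart. Of 23 macrophage and myeloid genes 19 rose and none fell, and 22 rose without replicate 2 (medians 1.28 and 1.73), and 5 entered through 1 week alone. Cd14, the endotoxin co-receptor, had a mean of 9.01 ± 0.87 (SD, n = 3) at 72 h, with 8.69 and 8.35 in replicates 1 and 3, and was 12.28, 12.57 and 12.32 at 1 week, 10.4-fold higher (adjusted p = 1.29e-05). Fcer1g, the common Fc receptor chain, was 5.04, 5.37 and 5.05 against 8.84, 8.74 and 9.50, at least 4.47-fold higher. Its 3 signals at 72 h were all at background, unlike Cd14, where replicate 2 lay between the times. The receptor Fcgr3 rose 4.09-fold and the complement gene C1qb 2.04-fold.

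Alternative activation genes had 6 of 11 higher and 1 lower (8 and 1 without replicate 2). Of the 6 that rose, 4 entered through 1 week alone. Arg1, arginase, was 5.05, 8.76 and 6.05 at 72 h and 11.58, 12.07 and 11.29 at 1 week, a rise of 5.03 ± 0.67 (adjusted p = 0.000115). Chil3 and Chil4, chitinase-like proteins, rose by 4.67 ± 0.64 and 4.61 ± 0.58. All 3 genes were detected on 1 of 3 arrays at 72 h, and replicate 2 was the highest 72 h heart for Arg1. Retnla, another gene of that state in mice, was 9.26, 7.29 and 9.13 at 72 h and 7.52, 7.62 and 7.16 at 1 week, 2.19-fold lower (adjusted p = 0.0314) and 3.39-fold lower without replicate 2 (adjusted p = 1.98e-07), which had the 1 week level.

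Neutrophil genes had 4 of 5 higher, and all 5 without replicate 2. Of the 5, 3 entered through 1 week alone, among them 2 of the 4 that rose with all hearts. S100a8, a calcium-binding protein of neutrophils, was 8.36, 9.24 and 8.68 at 72 h and 11.54, 11.75 and 11.33 at 1 week, 6.87-fold higher (adjusted p = 1.71e-06). The MCM mean was 10.09, so the 72 h hearts lay below and the 1 week hearts above it. S100a9 rose 5.44-fold with the same order (7.26 to 7.73, MCM 8.73, 9.78 to 10.10), and Retnlg, detected on 2 of 3 MCM arrays, rose at least 8.39-fold. Lcn2, lipocalin 2, was 7.31, 9.68 and 6.38 at 72 h and 11.81, 12.07 and 11.93 at 1 week, a rise of 4.15 ± 0.61 (adjusted p = 0.000213), with 2 of 3 arrays at 72 h above background.

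Cytokine and acute phase genes rose in 15 of 19 cases and fell in none (17 and none without replicate 2). The medians with and without it were 1.57 and 1.84, and 8 of the 15 that rose entered through 1 week alone. Ptx3, a long pentraxin, was 5.93, 6.70 and 5.33 against 9.41, 9.65 and 9.22, at least 5.91-fold higher by a probe dark at 72 h (adjusted p = 5.85e-06). Il6ra, the interleukin 6 receptor, rose 2.15-fold and Osm, oncostatin M, at least 1.02-fold. Among 19 chemokines 9 rose and 2 fell (12 and 3 without replicate 2). Of the 19, 5 entered through 1 week alone, among them 4 of the 9 that rose with all hearts. Ccl9 was 9.11, 11.25 and 8.80 against 11.99, 12.28 and 11.70, 4.82-fold higher (adjusted p = 0.00204). The neutrophil attractant Cxcl2 was at background in all 3 hearts at 72 h and rose at least 1.95-fold. Cxcl12, which retains stem and immune cells, was 13.39, 13.32 and 13.35 against 12.58, 12.32 and 12.23, 1.97-fold lower (adjusted p = 0.000178).

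Interferon response genes had 4 of 19 higher and 2 lower, and 11 and 2 without replicate 2. The share higher was 21.1% against 26.2% of all genes. H2-K1 and H2-D1, class I antigen presentation genes, rose 2.31-fold and 1.66-fold and Rsad2 2.00-fold, while Irf1 and Gbp3 fell 1.36-fold and 1.55-fold. Another probe of Gbp3 changed by -0.09 on the log2 scale. Immediate-early genes and Myc had 12 of 16 higher and none lower, the same counts without replicate 2, and 4 entered through 1 week alone. Junb, an AP-1 subunit, was 8.96, 10.11 and 8.85 against 10.87, 10.87 and 10.95, 3.01-fold higher (adjusted p = 0.000427). Fosl2 rose 2.84-fold, Klf6 1.92-fold and Fosb at least 1.08-fold.

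The cell cycle count depended on replicate 2. Of 23 tested 6 rose (26.1%, against 26.2% of all genes) and 2 fell, while 15 rose and 2 fell without replicate 2 and 3 rose without 72 h replicate 1. Of the 23, 11 entered through 1 week alone, among them 5 of the 6 that rose with all hearts. Cdca8, of the chromosomal passenger complex, was 5.40, 7.53 and 5.25 at 72 h and 8.13, 8.09 and 7.93 at 1 week, a rise of 1.99 ± 0.45 (adjusted p = 0.00338) with 1 of 3 arrays detected at 72 h. Rrm2, which makes deoxynucleotides, was 6.38, 6.61 and 5.97 against 7.62, 7.33 and 7.43, at least 1.51-fold higher. Ccnd2, cyclin D2, was 12.10, 12.35 and 12.10 against 10.86, 11.03 and 10.88, 2.40-fold lower (adjusted p = 7.99e-06), and Cenpa, the centromeric histone, fell 1.85-fold. Of 15 p53 targets 10 rose and 1 fell (9 and 2 without replicate 2). The apoptosis gene Bbc3 and the stress sensor Trp53inp1 rose 2.41-fold each, Ccng1 fell 1.57-fold, and Gadd45b rose by 1.38 ± 0.19. Cell death regulators had 7 of 18 higher and 1 lower (10 and 1 without replicate 2), with the caspase inhibitor Cflar up 2.27-fold and Bcl2l11, a killer protein, down 2.02-fold.

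Shifts in translation genes were small. Cytosolic ribosomal proteins had 12 of 54 higher (22.2%, against 26.2% of all genes) and 4 lower (7.41%, against 24.3%). Without replicate 2 the counts were 28 and 3, and 5 to 7 rose when any other heart was left out. The medians with and without replicate 2 were 0.13 and 0.23. Rpl10a rose 1.41-fold and Rps15a 1.88-fold. Rpl3l, the muscle form of Rpl3, was 14.36, 13.63 and 14.71 at 72 h and 13.18, 13.04 and 13.01 at 1 week, 2.23-fold lower (adjusted p = 0.000687). Ribosome biogenesis had 9 of 31 higher (29.0%) and 6 lower (19.4%), near the shares of all genes (13 and 6 without replicate 2), with Nop14 up 1.86-fold and Pes1 down 2.21-fold. Factors named Eif or Eef had 16 of 51 higher (31.4%) and 12 lower (23.5%), also near those shares (16 and 15 without replicate 2). Eif4ebp1, a repressor of cap-dependent translation, rose 2.25-fold and its relative Eif4ebp2 fell 2.08-fold.

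Of 13 clock genes 4 were higher (30.8%, against 26.2% of all genes) and 3 lower (23.1%, against 24.3%), with 3 and 4 without replicate 2. These shares are near those of all genes. Arntl, the core activator, was 5.79, 6.25 and 6.01 at 72 h and 8.41, 8.59 and 8.64 at 1 week, at least 3.21-fold higher (adjusted p = 2.08e-06). Its output gene Dbp was 13.71, 13.53 and 13.71 against 12.09 ± 0.11 (SD, n = 3) at 1 week, 2.95-fold lower (adjusted p = 6.70e-06), and Per3 fell at least 2.73-fold. The labels give no hour of collection, so its part cannot be told apart from that of time after induction.

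Markers of cell types moved in part with these lists. Some markers are also members of the function lists, among them Cd14, S100a9, Retnlg, Col1a2, Myh6, Pln, Kcnj8 and Abcc9. Agreement between marker and function lists is therefore partly built in. All 5 erythroid genes tested rose (of 10 listed) with and without replicate 2, with Alas2, of heme synthesis, at 8.82, 7.84 and 9.14 against 11.59, 11.55 and 11.73, 8.11-fold higher (adjusted p = 1.45e-05). Replicate 2 was the lowest heart for it. Of 7 macrophage markers 6 rose, of 11 fibroblast markers 5 rose and 1 fell, and of 12 endothelial markers 4 rose and 4 fell. The endothelial shares were 33.3% each, against 26.2% higher and 24.3% lower of all genes. Pdgfra of fibroblasts and Cldn5 of endothelium rose 1.95-fold and 4.03-fold. Of 8 cardiomyocyte markers 5 fell and none rose, and of 9 smooth muscle and pericyte markers 3 fell and 1 rose. Without replicate 2 all 7 macrophage markers rose, cardiomyocyte markers had 5 lower and 1 higher, smooth muscle and pericyte markers 4 lower and 2 higher, and endothelial markers 5 lower and 4 higher, while the fibroblast counts stayed at 5 and 1. The lung protease Napsa rose by 1.28 ± 0.17, and 1 of 8 lung markers entered the tests. The summed linear signal of the macrophage markers ran from 5752 to 15013 at 72 h and from 21834 to 26289 at 1 week, and that of the neutrophil markers from 582 to 1011 and from 4365 to 5965. For the erythroid markers the ranges were 67913 to 131716 and 189358 to 193962. For the cardiomyocyte markers they were 337176 to 356120 and 292425 to 294554. What part a change in cell makeup had in the lists above was not tested.

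The probes of Cacna2d3, a calcium channel subunit, and the kinase gene Ulk4 were dark in MCM hearts and bright in all induced ones. Cacna2d3 was 10.73, 10.33 and 10.45 at 72 h and 13.25, 13.25 and 13.46 at 1 week, 7.07-fold higher (adjusted p = 7.09e-08). Ulk4 was 9.15, 8.68 and 9.11 against 12.48, 12.44 and 12.61, 11.6-fold higher (adjusted p = 3.57e-08). Replicate 2 was the lowest of the 72 h hearts for both, while it was the nearest to 1 week for most lists. Whether these probes read their genes or the induced transcript was not tested.

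The position of 72 h replicate 2 between the times was computed for each gene called without it, as 0 at the mean of 72 h replicates 1 and 3 and 1 at the 1 week mean, so that its values had no part in the calls. Replicate 2 did take part in deciding which probes entered and which probe stood for a gene. Over 2756 genes called higher the median was 0.46 (quartiles 0.15 and 0.79), and over 2522 called lower it was 0.42 (0.15 and 0.71). These positions are descriptions of 1 heart and carry no test.

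Lists near or beyond the 1 week level in replicate 2 were the cell cycle (median position 1.18), fetal and hypertrophy genes (1.11), collagens (1.07), TGF-beta genes (1.06), cytoskeleton and adhesion (0.91) and cytosolic ribosomal proteins (0.85). Members of these lists named next were chosen after their values were seen. Cdk1, the mitotic kinase, was 5.40, 8.50 and 5.62 at 72 h and 7.62, 8.09 and 7.40 at 1 week. It was not called with replicate 2 (adjusted p = 0.118) and rose by 2.20 ± 0.20 without it (adjusted p = 3.34e-07). Top2a, which untangles replicated DNA, was 5.29, 7.78 and 5.32 against 7.28, 7.44 and 6.89, with adjusted p of 0.104 and 2.62e-06. In both genes replicate 2 exceeded every heart at 1 week.

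Among contractile stress genes Ankrd2, a stretch-responsive titin partner, was 5.24, 8.91 and 5.29 against 7.56, 7.20 and 7.39, and Actn1, non-muscle alpha-actinin, 10.77, 12.53 and 10.44 against 12.21, 12.45 and 12.17. Ankrd2 rose by 2.12 ± 0.20 without replicate 2 and was not called with it (adjusted p = 0.318). Col1a1 was 10.33, 11.99 and 9.86 against 11.57, 11.74 and 11.92, 2.02-fold higher with replicate 2 and 3.13-fold without. The basement membrane chains Col4a1 and Col4a2 had positions of 1.11 and 1.00. Tgfbi, a TGF-beta-induced matrix protein, was 10.59, 12.08 and 9.97 against 11.95, 12.15 and 11.83. Anxa2, which bridges membrane and actin, was 12.41, 13.85 and 12.19 against 13.93, 14.05 and 13.64, so replicate 2 lay within the 1 week range.

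**Figure D3:**
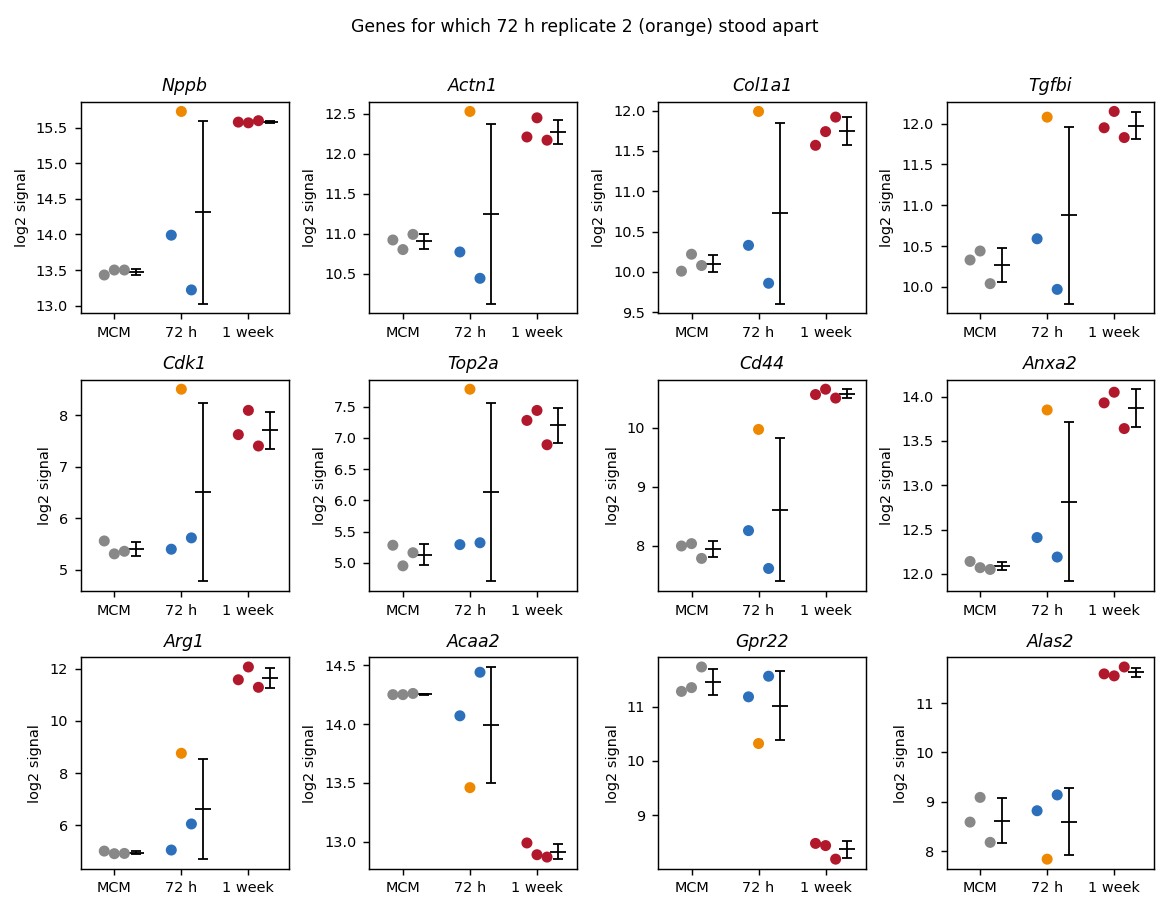
Log2 signal of 12 genes on each array of the MCM (grey), 72 h (blue, replicate 2 in orange) and 1 week (red) hearts, with the mean and SD of each group as a bar (n = 3). In Nppb, Actn1, Col1a1, Cdk1 and Top2a replicate 2 lies above all hearts at 1 week, in Arg1 and Gpr22 it lies between the times, and in Alas2 it lies below the other hearts at 72 h.

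Lists at an intermediate position were chemokines (0.76), complex I and fatty acid oxidation (0.73 each), macrophage genes (0.68), the TCA cycle (0.66), matrix proteins (0.65), immediate-early genes (0.61), cytokines (0.60), and ion channels and complexes II to V (0.59 each). For fatty acid oxidation the list median relative to MCM was -0.22, -0.73 and 0.10 in the 3 hearts at 72 h and -0.78 to -0.85 at 1 week. Lists with a lower median position were cardiac transcription factors (-0.08), amino acid transporters (0.03), heat shock chaperones (0.14), the clock (0.20), ATF4 genes (0.21), neutrophil genes (0.24), calcium handling (0.28), p53 targets (0.31) and antioxidant genes (0.33). For the ATF4 list the median relative to MCM was 0.06, -0.01 and 0.05 at 72 h and 1.41 to 1.55 at 1 week. Within energy metabolism the list of regulators had a median position of 0.39, with Ppara and Ppargc1b at 0.21 and 0.20. Among enzyme genes positions varied, with Acaa2 at 0.60 but Mdh2 and Eci2 at 0.34 and 0.38. Differences between list positions were not tested.

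**Figure D4:**
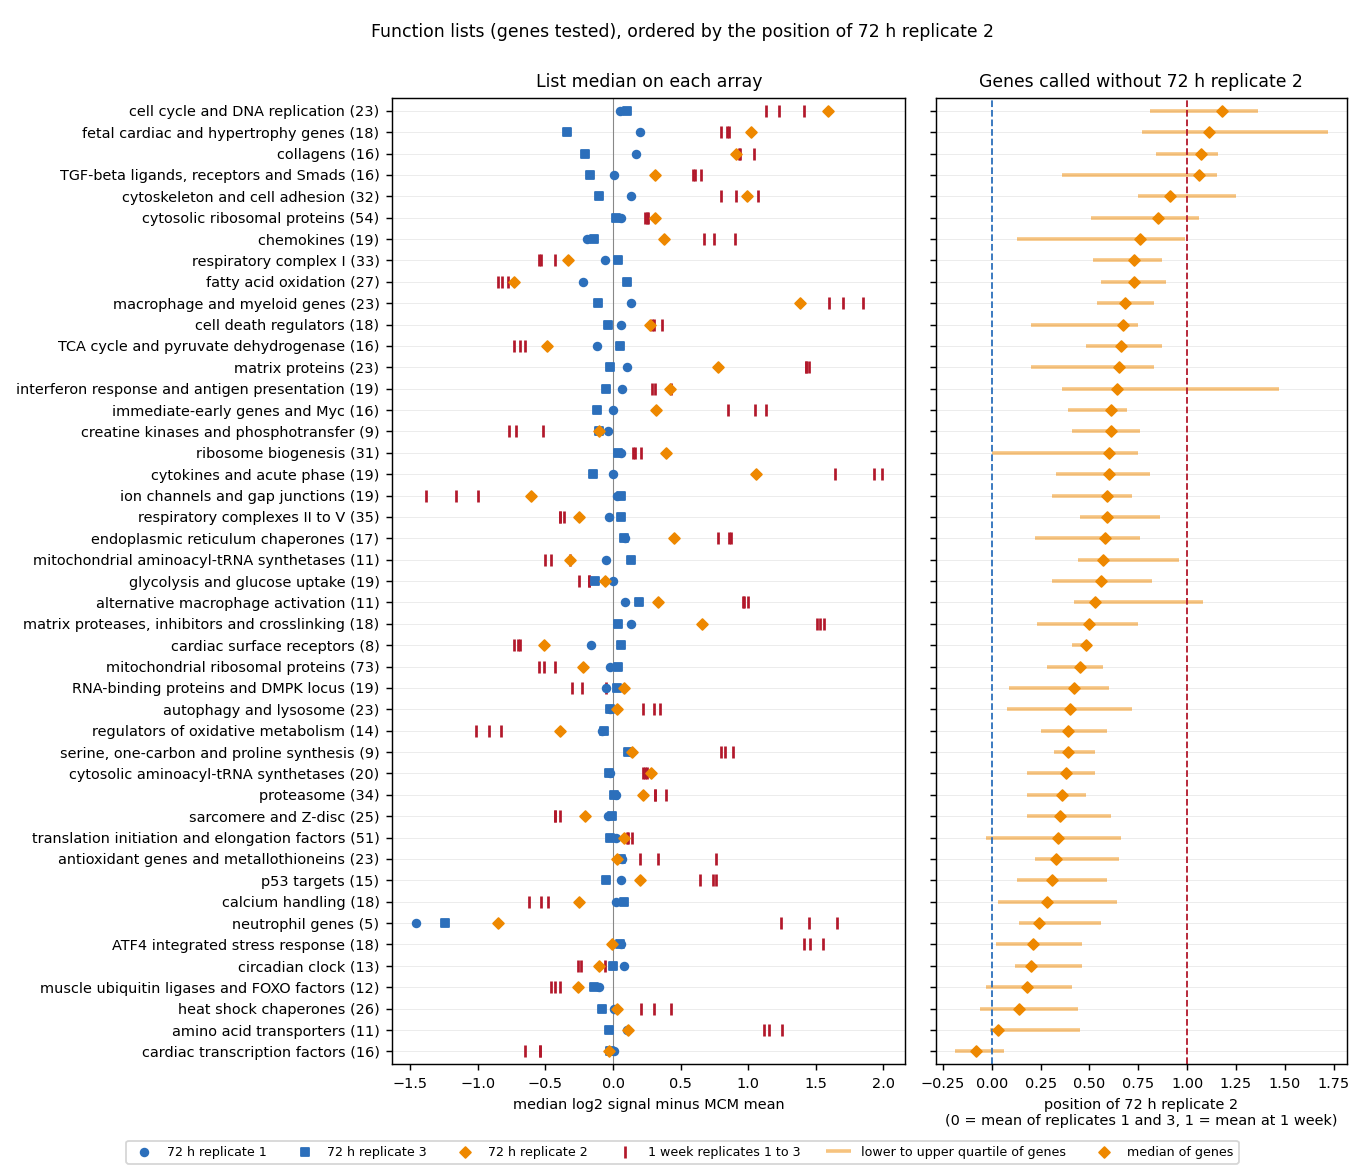
Left, median log2 signal of each function list relative to its MCM mean on each array at 72 h (blue, replicate 2 in orange) and 1 week (red bars); right, position of 72 h replicate 2 between the other hearts at 72 h (0, blue line) and the 1 week mean (1, red line), as the median and quartiles over genes called without it. Cell cycle, fetal and collagen genes lie at or beyond 1, fatty acid oxidation at 0.73 and ATF4, heat shock and transcription factor genes at 0.21 or below.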

How the data were processed

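Total RNA of 12 hearts was measured on Illumina bead arrays, and the 6 arrays of induced hearts enter the comparison. Per the file headers, the deposited array files hold the mean bead signal of each probe as a linear intensity without normalization, a detection score given as a fraction between 0 and 1, and the count of beads behind each mean, 41 or 42 at the median. The authors' deposited value table holds intensity after its quantiles were mapped onto a master array. Neither headers nor labels name the scanner software. Bead number and the number of arrays limit the precision.

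Subtracting the score from 1 gave a detection p. With limma 3.58.1 under R 4.3.3, signals were background-corrected by nec with an offset of 16, quantile-normalized and put on the log2 scale. A probe entered if its detection p was below 0.01 on every array of the 72 h or of the 1 week group (13072 probes), and each gene was its entered probe with the highest mean over the 6 induced arrays. Names came from the platform annotation, updated by gene identifier through RefSeq GRCm38.p6. Each group mean was fitted with lmFit over all 12 arrays, and 1 week minus 72 h was tested with eBayes with an intensity trend, two-sided, with 7 residual degrees of freedom. Adjusted p values are from this fit by Benjamini-Hochberg over 8737 genes. A value after ± is the SE. The fit was tested on simulated data.

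A fold is "at least" where the probe was dark on every array of 1 time, from the brighter mean against, per array, the higher of the probe's own value and the lowest signal of detected probes. Named genes were the 12 largest rises and 12 largest falls, for each list up to 4 members with the lowest adjusted p in its main direction and 2 in the other, fixed DM1 genes, up to 2 per marker list, and up to 4 further members, chosen after their values were seen, of lists where 72 h replicate 2 lay near 1 week. Members and lists were chosen with earlier results of these data known. Other probes of a gene are given only for some of the named genes. Same-numbered samples of the times had deviations correlating at 0.065, 0.158 and 0.056, and different-numbered ones at -0.138 to 0.092. The numbers were not taken to pair hearts, though so few arrays cannot exclude a weak pairing. Alternatives left out each heart and changed the arrays fitted, background, filter, weights, probe rule and call rule.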

Additional observations from a re-analysis of the deposited data

How the results depend on the processing

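Leaving out each heart in turn gave 1850 to 2756 genes higher and 1705 to 2522 lower, the highest counts without 72 h replicate 2. Requiring at least 1.5-fold gave 1500 higher (17.2%) and 1174 lower (13.4%). With the replicate block the counts were 2311 and 2116, but the labels do not say that same-numbered hearts are paired. Array weights, with 0.143 for 72 h replicate 2, gave 3079 and 2804. The 6 induced arrays alone gave 1917 and 1790, and the values in the authors' deposited table gave 2303 higher and 2109 lower. With all probes of a gene averaged, Atp5k changed by -0.14 (adjusted p = 0.576) and Abcc9 by 0.66 (adjusted p = 0.00279), each opposite to the value reported, since their probes disagree. In that setting 4066 of the 4405 called genes were called in the same direction and 18 in the opposite one, and no other alternative run gave an opposite call. Of 45 list medians, 44 kept their sign under every alternative run, and the exception was the muscle ubiquitin ligases (0.01 with no detection filter). A bead chip block was not run because the files name no chip.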
